A study of Mus musculus with 4 samples.

Results

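Transcripts of myelin and of the Schwann cells that make it were followed in mouse calf muscle for 8 genes: Mbp, Pmp22, Cnp, Mal, Mag, Gjb1, Egr2 and S100b. They were chosen by symbol, and every probe set annotated to exactly 1 of these symbols was taken, dim ones included. This gave 21 of 22626 probe sets and 8 of 12393 genes. Gastrocnemius muscle of mice aged 6 weeks had been measured on 4 Affymetrix expression arrays. The 2 non-transgenic arrays hold RNA of wild-type littermates. The 2 MCK-PPARb arrays hold RNA of mice that carry a PPARbeta transgene (gene Ppard) for overexpression in muscle. MCK stands for muscle creatine kinase, whose promoter is active in muscle fibres, so the transgene is directed to the fibres. The labels name no founder line, sex or further allele. Each array was counted as 1 mouse because the titles number biological replicates. Where the design text means repeat arrays instead, the p-values cover no more than the spread of these 4 samples, which may be technical.

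Motor and sensory axons reach muscle fibres through intramuscular nerve branches, where Schwann cells wrap the larger axons in myelin, a stack of compacted membrane that speeds conduction. The transcription factor Egr2, acting with Sox10, switches on the genes of myelin proteins and lipids. Mbp and Pmp22 encode proteins of compact myelin. Cnp and Mag encode proteins of its non-compacted parts, Mal a proteolipid of membrane transport, Gjb1 a connexin that forms channels across the layers, and S100b a calcium-binding protein used as a Schwann cell marker. None of the 8 is exclusive to Schwann cells: Pmp22 is also made by fibroblasts, S100b by adipocytes, Mal by many epithelia, and Cnp is widely expressed at low levels.

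Transcripts of 4 of the 8 genes, Mbp, Pmp22, Cnp and Mal, gave signals above the filter level of 444 units, the median over all probe sets. Each had a higher signal on both MCK-PPARb arrays than on both non-transgenic arrays, with differences of 1.50-fold to 1.94-fold, as 22.2% of kept genes had in that direction. None of the 4 passed the test, limma's moderated test with an adjusted p under 0.05 over all kept probe sets, which called 0.601% of 11313 kept probe sets and 0.731% of 6841 kept genes. At an unadjusted p under 0.05, limma counted 3 of the 4, against 10.9% of kept genes. The genes were known from earlier results of these data when they were chosen, so these counts describe the 4 genes and support nothing further. Mag, Gjb1, Egr2 and S100b lay below the filter and were tested in a fit without it. In whole muscle, fewer cells of a type and less RNA per cell cannot be told apart.

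Among the 8 genes, each by its probe set of highest mean, Mbp had the highest MCK-PPARb minus non-transgenic difference. Its probe set of highest mean read 7616 and 6856 on the non-transgenic arrays against 13324 and 14763 on the MCK-PPARb arrays. The groups did not overlap, and the SD of log2 signal was 0.11 in non-transgenic and 0.10 in MCK-PPARb muscle (n = 2 per group). The log2 difference was 0.96 ± 0.18 (SE, 1.94-fold), and limma gave an adjusted p of 0.0928. Of the kept genes, 80 had a p as small or smaller, and 148 had a difference at least as large. Without non-transgenic replicate 1, the array brightest at the top of its scale, the difference was 1.03 and passed in limma (adjusted p = 0.0488). Averaged over all 8 probe sets it was 0.58 (adjusted p = 0.415 in limma). Over all alternatives the adjusted p ran from 0.0151 to 0.441.

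The array carries 8 probe sets for Mbp, which are annotated to the same gene and are not replicates of one another. The 6 that passed the filter all read higher in MCK-PPARb muscle without overlap, with log2 differences of 0.58 to 0.98 and limma adjusted p of 0.0928 to 0.587. The second brightest read 4758 and 5495 in non-transgenic muscle against 7730 and 9823 in MCK-PPARb muscle. The dimmest of the 6 read 336 and 474 against 836 and 715, and so passed the filter through its MCK-PPARb signals. The other 2 lay below the filter and pointed in different directions, one at 246 and 243 against 56.7 and 222, and the other at 109 and 60.1 against 67.2 and 259.

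**Figure D1:**
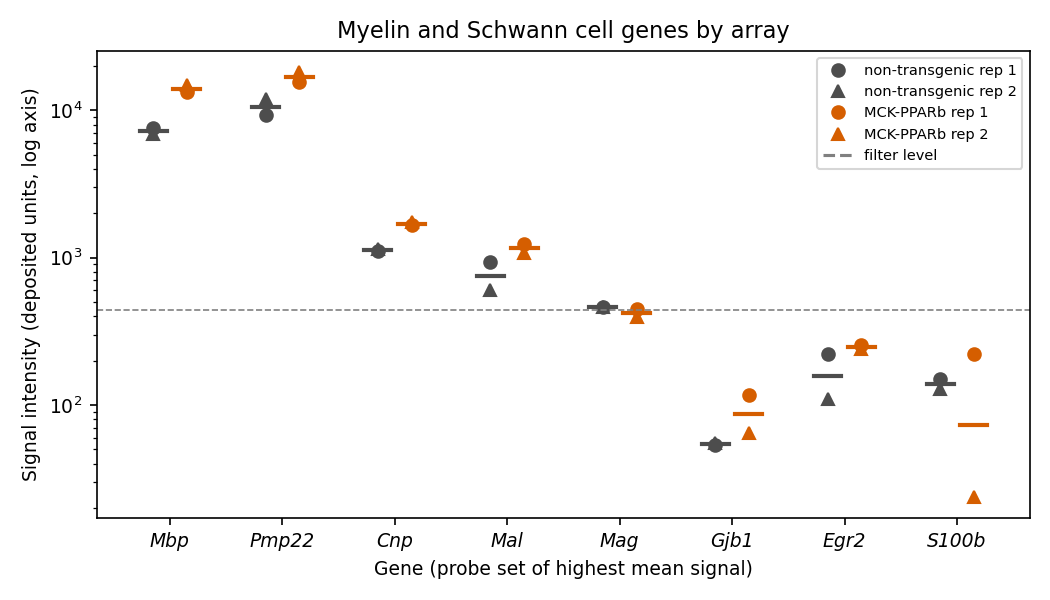
Signal intensity (deposited units, log axis) of each of the 8 genes by array, for the probe set of highest mean; grey points are non-transgenic and orange points MCK-PPARb arrays, circles replicate 1 and triangles replicate 2, bars the mean of log2 signals, and the dashed line the filter level of 444 units. For Mbp, Pmp22, Cnp and Mal both MCK-PPARb points lie above both non-transgenic points, while S100b spreads from 23.9 to 221 within the MCK-PPARb group.

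Pmp22, which encodes a tetraspan protein of compact myelin whose dose matters in inherited neuropathy, has 1 probe set. It read 9268 and 11980 on the non-transgenic and 15464 and 18195 on the MCK-PPARb arrays. The groups did not overlap. The log2 difference was 0.67 ± 0.21 (SE, n = 2 per group, 1.59-fold) and did not pass in limma (adjusted p = 0.285). It ran from 0.49 to 0.86 when single arrays were left out, being lowest without non-transgenic replicate 1. Of the kept genes, 5.73% had a difference at least as large.

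Cnp encodes an enzyme of the cytoplasmic channels that run through myelin. Its probe set of highest mean read 1111 and 1153 in non-transgenic muscle against 1666 and 1732 in MCK-PPARb muscle. The arrays of a group lay close together, with an SD of log2 signal of 0.038 and 0.040. The log2 difference was 0.59 ± 0.24 (SE, n = 2 per group, 1.50-fold) and did not pass in limma (adjusted p = 0.444). Its other 2 probe sets, both kept, had differences of 0.32, with 1290 and 866 against 1173 and 1485, and 0.41, with 1046 and 739 against 1082 and 1269. The first of these overlapped between the groups. Without probe sets of the suffixes _s_at and _x_at, which can match several transcripts, Cnp was therefore at 0.32 (adjusted p = 0.777 in limma, with all alternatives between 0.272 and 0.862).

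Mal encodes a small membrane proteolipid found in compact myelin and in epithelial cells. Its 2 probe sets both passed the filter and both read higher in MCK-PPARb muscle without overlap. That of highest mean read 931 and 601 in non-transgenic muscle against 1241 and 1078 in MCK-PPARb muscle, which is 0.63 ± 0.32 higher on the log2 scale (SE, n = 2 per group, limma adjusted p = 0.553). The other read 410 and 517 against 694 and 686, a difference of 0.58. The non-transgenic arrays were further apart for Mal than for Mbp, Pmp22 or Cnp, and its difference was 0.95 without non-transgenic replicate 1 and 0.31 without non-transgenic replicate 2. Neither passed in limma (adjusted p = 0.303 and 0.779, with all alternatives between 0.303 and 0.946).

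Sequence upstream of the annotated starts is shown for Pmp22, Cnp and Mal, so that base composition and motifs can be set side by side. Mag, a myelin gene whose signal was not higher on the MCK-PPARb arrays, is shown with them. No window of Mbp was taken, because windows on its chromosome, 18, were left out. The sequences are those of RefSeq on GRCm38.p6 and end at the base before the annotated gene. The stretch of Pmp22 is chr11:63128732-63128981 on the plus strand, that of Cnp chr11:100574689-100574908 on the plus strand, that of Mal chr2:127656696-127656945 on the minus strand and that of Mag chr7:30914923-30915172 on the minus strand. Capitals mark a match to the SOX motif on either strand.
Pmp22: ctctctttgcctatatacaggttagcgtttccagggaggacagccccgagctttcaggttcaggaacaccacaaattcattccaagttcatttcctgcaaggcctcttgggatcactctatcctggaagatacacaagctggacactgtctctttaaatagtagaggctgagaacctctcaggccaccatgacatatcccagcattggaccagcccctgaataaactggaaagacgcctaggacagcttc
Cnp: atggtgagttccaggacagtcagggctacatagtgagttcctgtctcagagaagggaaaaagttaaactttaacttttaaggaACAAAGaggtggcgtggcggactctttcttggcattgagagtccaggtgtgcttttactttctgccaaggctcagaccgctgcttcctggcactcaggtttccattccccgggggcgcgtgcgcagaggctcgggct
Mal: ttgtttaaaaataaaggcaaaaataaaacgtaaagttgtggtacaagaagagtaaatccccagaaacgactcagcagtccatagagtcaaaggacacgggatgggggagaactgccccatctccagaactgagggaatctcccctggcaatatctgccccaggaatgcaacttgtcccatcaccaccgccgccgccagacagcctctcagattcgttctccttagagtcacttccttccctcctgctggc
Mag: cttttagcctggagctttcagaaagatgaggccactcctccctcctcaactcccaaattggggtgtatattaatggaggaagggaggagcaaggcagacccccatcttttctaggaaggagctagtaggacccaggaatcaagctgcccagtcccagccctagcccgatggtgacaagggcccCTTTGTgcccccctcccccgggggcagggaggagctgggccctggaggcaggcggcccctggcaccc

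By symbol, 7 of the 8 genes were matched to 19 windows of 250 bases before an annotated start. Windows on chromosome 18, which holds Mbp, were left out for these genes, so Mbp was not searched. The shares over all windows had no such exclusion. Both strands were searched for 4 motifs, and windows of 1 gene can overlap. The SOX motif (ACAAAG or ACAATG) was in 5 of the 19 windows, of Cnp, Gjb1 and Mag, against 25.2% of all 32851 windows of that length. The EGR motif (GCGTGGGCG or GCGGGGGCG) was in 0 of 19, against 3.06% of all windows. The direct repeat bound by PPAR (its half-site AGGTCA given head to tail with 1 base between) was in 0 of 19, against 0.0335%. The half-site alone, which the repeat also contains, was in 1 of 19, a window of Gjb1, against 14% of all windows. These are matches of letters in short windows. They describe the sequences and give nothing on binding.

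The other 4 genes had mean signals below the filter level. Mag, which encodes an adhesion protein of the inner myelin layer facing the axon, read 463 and 460 in non-transgenic muscle against 447 and 398 in MCK-PPARb muscle. The MCK-PPARb arrays lay below the others by a small margin, at a log2 difference of -0.13 ± 0.44 (SE) with an adjusted p of 0.979 in the limma fit without a filter. Its mean lies just under the filter, and the interval of 1 SE around its difference holds both signs.

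Gjb1, which encodes connexin 32, read 53.9 and 55.1 in non-transgenic muscle against 116 and 65 in MCK-PPARb muscle, and the log2 difference was 0.67 ± 1.05 (SE). Its other probe set read 108 and 8 against 39 and 12, a difference of -0.44, so the 2 probe sets pointed in opposite directions. Egr2, the regulator of myelination, read 223 and 110 against 256 and 238, a difference of 0.66 ± 0.74 (SE). Its other probe set read 22.5 and 82 against 20.9 and 128, with overlap. Both genes were above the non-transgenic arrays without overlap at their brighter probe set, which 20.9% of all measured genes also were. With signals raised to the filter level, both differences were 0.

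S100b read 150 and 129 in non-transgenic muscle against 221 and 23.9 in MCK-PPARb muscle at its probe set of highest mean, a log2 difference of -0.94 ± 1.20 (SE). Its other probe set read 18.6 and 132 against 109 and 277, a difference of 1.81 ± 1.21 (SE). The groups overlapped at both probe sets, and leaving out MCK-PPARb replicate 2 turned the former to 0.67. No direction can be given for S100b. In the limma fit without a filter, the adjusted p was 0.943 for Gjb1, 0.909 for Egr2 and 0.925 for S100b, and that fit called 0.331% of all probe sets.

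**Figure D2:**
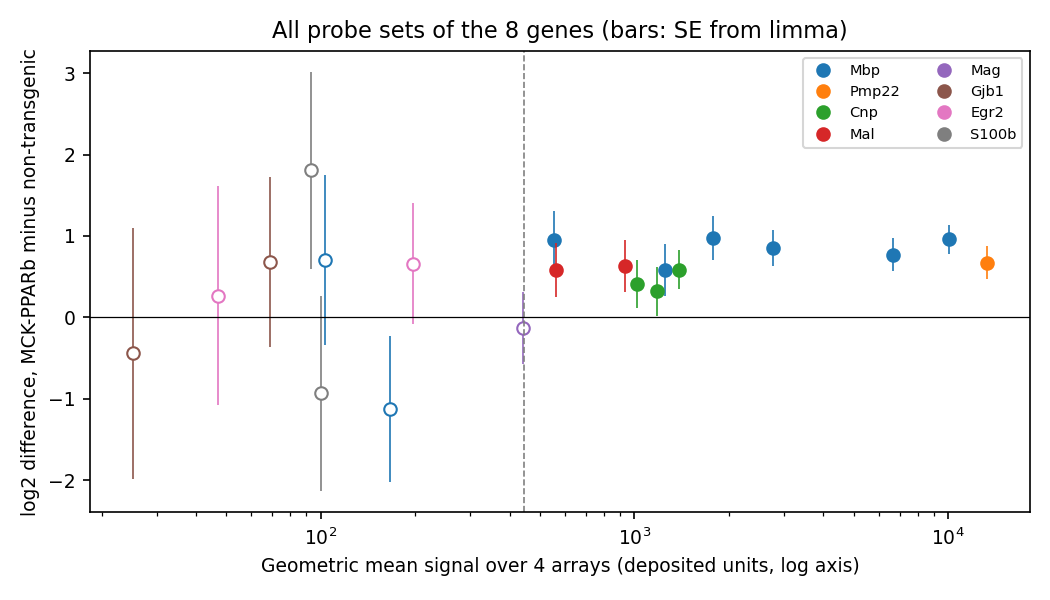
Log2 difference (MCK-PPARb minus non-transgenic) of all 21 probe sets of the 8 genes against their mean signal over 4 arrays (deposited units, log axis); bars are limma's SE, filled points passed the filter, open points did not and have the SE of the fit without a filter, and the dashed line is the filter level. The 12 filled points all lie above 0 with an SE of 0.18 to 0.35, and the 9 open points lie on both sides with an SE of 0.44 to 1.54.

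Across the 21 probe sets the SE was larger where the signal was lower. The 12 above the filter all had positive differences, with no overlap between the groups for 11. The filter uses the mean over both groups, and 1 of these 11, the dimmest kept probe set of Mbp, passed it through its MCK-PPARb signals, so these counts are a description. Of the 9 below it, 5 had positive differences. Over all kept genes, 22.2% had both MCK-PPARb arrays above both non-transgenic arrays and 51.2% had a positive difference, with a median of 0.011.

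Over the 4 arrays, the mean profile of the 4 kept genes, centred on each gene's mean, was -0.31 and -0.40 on the non-transgenic and 0.33 and 0.38 on the MCK-PPARb arrays. The kept genes nearest to it by Euclidean distance of centred log2 signals were Snrnp48 (distance 0.046), a protein of the minor spliceosome, Lin37 (0.056), a subunit of a cell cycle repressor complex, Ephx1 (0.061), the microsomal epoxide hydrolase, Hadha (0.061), an enzyme of fatty acid oxidation, and Spats2l (0.077). Hadha read 12515 and 12213 in non-transgenic muscle against 20314 and 21460 in MCK-PPARb muscle. No gene of the nerve lists was among these 5.

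Of 20 further genes of myelin structure, assembly and upkeep, 13 were measured and 7 passed the filter. None was called in limma, and 1 had an unadjusted p under 0.05. That gene was Ncmap, which encodes a protein of non-compact myelin in peripheral nerve. Ncmap read 546 and 457 in non-transgenic muscle against 856 and 822 in MCK-PPARb muscle, and the log2 difference was 0.75 ± 0.31 (SE, limma adjusted p = 0.462), without overlap. Its size is in the range of Mbp, Pmp22, Cnp and Mal. The median of the 7 was 0.025, with Pllp, a myelin proteolipid related to Mal, at 0.32, Ndrg1 at 0.27, and Cd9, Mtmr2, Litaf and Plekhb1 between -0.087 and 0.025. The last 4 are also made by many other cells. The other 7 were not analysed here.

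Of 22 regulators of Schwann cells, 20 were measured and 9 passed the filter, with none called in limma and 1 at an unadjusted p under 0.05. The median difference of the 9 was 0.13. Sox10, the transcription factor that defines the Schwann cell lineage, read 753 and 691 in non-transgenic muscle against 992 and 788 in MCK-PPARb muscle. Its difference was 0.29 ± 0.30 (SE, limma adjusted p = 0.795), without overlap. Its other 2 probe sets, both below the filter, read 119 and 121 against 229 and 303, a difference of 1.13, and 352 and 237 against 303 and 301, a difference of 0.067. Erbb3, the receptor through which axonal neuregulin acts on Schwann cells, read 744 and 786 against 1156 and 1040, a difference of 0.52 ± 0.27 (SE, limma adjusted p = 0.564), while its other probe set, below the filter, was at -0.41. At their probe sets of highest mean, Sox10 and Erbb3 stood above the non-transgenic arrays, while their dimmer probe sets differed in size or direction. Yap1, a transcriptional co-activator active in many cells, read 2252 and 2607 against 4043 and 2982, a difference of 0.52 ± 0.23 (SE, limma adjusted p = 0.499), without overlap. Jun, an immediate early gene that is also active in muscle fibres, had the smallest p of the list, at 0.83 ± 0.23 (SE, limma adjusted p = 0.228). Jun passed in limma without non-transgenic replicate 1 (1.10, adjusted p = 0.046) and with the replicate number as a block (adjusted p = 0.0497), and the highest adjusted p among the alternatives was 0.633.

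Markers of immature and non-myelinating Schwann cells were mostly dim, with 3 of 11 measured genes above the filter, none called in limma, 0 at an unadjusted p under 0.05 and a median of -0.12. Leaving out single arrays moved that median between -0.23 and 0.077, the latter without non-transgenic replicate 2, so it has no stable sign. L1cam, an adhesion molecule, was at 0.28, Matn2 at -0.12 and Gfra3, a co-receptor for artemin, at -0.47. Over all 11, kept or not, 5 genes were above the non-transgenic arrays without overlap, as were 20.9% of all measured genes. Another 2 were below, for which the share over all genes was not counted. Among the 8 below the filter, the 2 nearest to it were Ncam1, with 297 and 260 in non-transgenic muscle against 538 and 678 in MCK-PPARb muscle, and Ngfr, the low-affinity neurotrophin receptor, with 294 and 321 against 439 and 495. Gap43, a growth-associated protein, read 104 and 30.9 against 14.4 and 26.9 and lay below without overlap, while Gfap and Foxd3 were at -0.51 and -0.32 with overlap. Muscle fibres themselves can make Ncam1.

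Transcripts of axons and motor neurons, whose cell bodies lie outside the muscle, were mostly below the filter. Of 16 measured genes, 1 passed it: Thy1, a surface glycoprotein also found on other cells, at -0.35 (limma adjusted p = 0.661). The neurofilament genes Nefl, Nefm and Nefh read at most 252 on any array. Their differences were -1.56 ± 1.33, -1.22 ± 1.22 and -0.55 ± 0.715 (SE, fit without a filter), below the non-transgenic arrays without overlap. Nefl read 12.2 and 58.9 in non-transgenic muscle against 12 and 6.9 in MCK-PPARb muscle, so its groups barely separated. Of all 16 genes, kept or not, the neurofilament genes and Thy1 were the 4 below without overlap. The share of all genes below was not counted. Another 2, Uchl1 at 0.54 and Sncg at 1.76, both under the filter, were above, as were 20.9% of all measured genes. None was called in the limma fit without a filter. The 4 measured markers of oligodendrocytes, the myelin cells of the brain, all lay below the filter, and Mog read 20.3 and 55.7 in non-transgenic muscle against 28.5 and 11.7 in MCK-PPARb muscle.

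Of 15 genes of the node of Ranvier and of adhesion between axon and glia, 14 were measured, 6 passed the filter and 1 was called higher in MCK-PPARb muscle, as were 0.409% of kept genes. This was Cntnap2, which encodes Caspr2, a protein that holds potassium channels beside the node. Cntnap2 rose from 1031 and 979 to 3522 and 2674, by 1.61 ± 0.24 on the log2 scale (SE, n = 2 per group, limma adjusted p = 0.0431). In limma without the intensity trend the difference was the same and its adjusted p was 0.132. Without MCK-PPARb replicate 1 the difference was 1.41 (adjusted p = 0.224), and without MCK-PPARb replicate 2 it was 1.81 (adjusted p = 0.0855). In those last fits the lone MCK-PPARb array is assumed to vary like the non-transgenic pair. The adjusted p spanned 0.00124 to 0.224 over the alternatives. Its other 2 probe sets lay below the filter, at 139 and 86.1 against 347 and 65.4, and at 24.8 and 82.6 against 56.5 and 161, both with overlap, and the mean of its 3 probe sets fell below the filter.

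Among the other genes of the node and of axon-glia adhesion, Epb41l3, which encodes the band 4.1 protein of the paranode, read 479 and 461 in non-transgenic muscle against 785 and 879 in MCK-PPARb muscle. Its difference was 0.82 ± 0.31 (SE, limma adjusted p = 0.405), without overlap, and its other probe set, below the filter, was at -0.15. Cadm4, the Schwann cell partner in internodal adhesion, was at 0.30 without overlap. Cadm3, the axonal partner, was at -0.73 (limma adjusted p = 0.485) and Epb41l2 at -0.31, both below the non-transgenic arrays without overlap. Ank3 was at -0.084 with overlap. Over all 14 measured genes, kept or not, 4 were above without overlap, as were 20.9% of all measured genes. Another 4 were below, for which the share over all genes was not counted. The median of the 6 was 0.11.

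Cholesterol is a main lipid of myelin, and 10 of 14 genes of its synthesis and uptake were measured. Of the 6 above the filter none was called in limma, 1 had an unadjusted p under 0.05 and the median was 0.073. Fdft1, squalene synthase, was at 0.55 ± 0.19 (SE, limma adjusted p = 0.348), Srebf2, which encodes the regulator of the pathway, at 0.18 and Hmgcs1 at -0.037. Fdps was at 0.27, and Scap and Dhcr7 at -0.32 and -0.31, both below the non-transgenic arrays without overlap. These genes are active in most cells, muscle fibres included.

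Muscle also holds fat and other cells, whose markers were measured on the same arrays. Of 8 measured adipocyte markers, 5 passed the filter, and 4 of these read higher in MCK-PPARb muscle without overlap, as did 22.2% of kept genes. None was called in limma, and 2 had an unadjusted p under 0.05, against 10.9% of kept genes. Adipoq, the fat hormone adiponectin, read 1151 and 1648 in non-transgenic muscle against 2567 and 3076 in MCK-PPARb muscle (1.03 ± 0.26 SE, limma adjusted p = 0.194). Adipoq passed with the replicate number as a block (adjusted p = 0.0256 in limma), and its highest adjusted p over the alternatives was 0.618. Retn, resistin, was at 1.02, and Lipe and Lpl, the hormone-sensitive and lipoprotein lipases, at 0.76 and 0.68, while Fabp4 was at -0.23 with overlap. Below the filter, Cidea, a lipid droplet protein, had the largest difference of the list at 2.18 ± 0.57 (SE), with 183 and 117 against 593 and 737 (adjusted p = 0.293 in the limma fit without a filter). Lep and Cidec, also below it, were at -0.80 and -0.47. The summed signal of the 8 adipocyte markers was 28419 and 49660 on the non-transgenic and 51208 and 57099 on the MCK-PPARb arrays. Most of that sum was Lpl, which muscle fibres also make, at 17825 and 34803 against 36927 and 43087. S100b is made by adipocytes too. How much fat or nerve each piece of muscle held was not tested, nor was the part of either in the differences of Mbp, Pmp22, Cnp and Mal.

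Perineurial cells form the sheath around nerve fascicles. Of 5 measured markers, 2 passed the filter, and none was called in limma. Itgb4, a laminin-binding integrin also made by Schwann cells, read 444 and 701 in non-transgenic muscle against 1009 and 1303 in MCK-PPARb muscle (1.04 ± 0.34 SE, limma adjusted p = 0.331), and Slc2a1, a glucose transporter made by many cells, 168 and 693 against 729 and 777. Slc2a1 was at 1.14 ± 0.63 (SE, limma adjusted p = 0.586) and passed the filter through its MCK-PPARb signals. The groups of neither gene overlapped, and 22.2% of kept genes were likewise above without overlap. Below the filter, Krt19 was at -0.68 and Cldn1 at 0.26, both with overlap, and Lgals7 at 0.89 without overlap. The part of perineurial cells in the results above was not tested.

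None of the marker genes of the remaining cell types was called in limma. All 8 fibroblast markers passed the filter, with a median of -0.15, summed signals of 306250 and 264350 in non-transgenic muscle against 294970 and 244340 in MCK-PPARb muscle, and 0 genes at an unadjusted p under 0.05. The fibroblast sums overlapped between the groups, and Lum, Dpt, Pdgfra and Col3a1 were between -0.49 and -0.13, each with overlap. Fibroblasts also make Pmp22, and their part in its difference was not tested. All 9 endothelial cell markers had a median of -0.14, with Emcn, Tie1, Cldn5 and Cdh5 between -0.52 and -0.23. The 8 macrophage markers had a median of 0.070, with Adgre1 at 0.83 (limma adjusted p = 0.287), Cd14 at 0.56, Mrc1 at -0.21 and Lyz2 at -0.25. The 1 kept marker of erythroid cells, Alas2, was at 0.17. All 9 muscle fibre markers passed, with signals of Acta1, skeletal actin, between 113926 and 223921 on all arrays, and a median difference of -0.23. Myh7, the slow myosin heavy chain, was at 0.67 ± 0.35 (SE, limma adjusted p = 0.563) without overlap, and 22.2% of kept genes were likewise above. Myh7 read 7612 and 17024.5 in non-transgenic muscle against 17671 and 18455.5 in MCK-PPARb muscle, so non-transgenic replicate 2 lay close to the MCK-PPARb arrays. Acta1, Tnnt3 and Pvalb were at -0.33, -0.39 and -0.43 with overlap. Single arrays set the sign or size of these medians. That of muscle fibres was 0.15 without non-transgenic replicate 1 and -0.655 without non-transgenic replicate 2. That of endothelial cells was -0.345 and 0.010 without the same arrays, and that of fibroblasts -0.27 without MCK-PPARb replicate 1, -0.012 without non-transgenic replicate 2 and -0.0042 without MCK-PPARb replicate 2. Macrophage markers ranged from -0.032 to 0.21, Alas2 from -0.10 to 0.44 and the perineurial markers from 0.41 to 1.77 when single arrays were left out.

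The arrays had median signals of 431 to 513 units, and their log2 signals correlated at 0.924 to 0.955 over the kept probe sets, a description over features and not over samples. Non-transgenic replicate 1 stood apart at the top of the scale, with 4.20% of its signal in its 10 brightest probe sets, compared with 2.36% to 2.78% elsewhere. Ppard, the overexpressed gene, read 2169 and 2825 in non-transgenic muscle against 126049 and 98797 in MCK-PPARb muscle, in the direction of the labels. An exact permutation test of 2 arrays against 2 cannot go below p = 0.333, so every p given here rests on the spread that limma pools over probe sets.

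**Figure D3:**
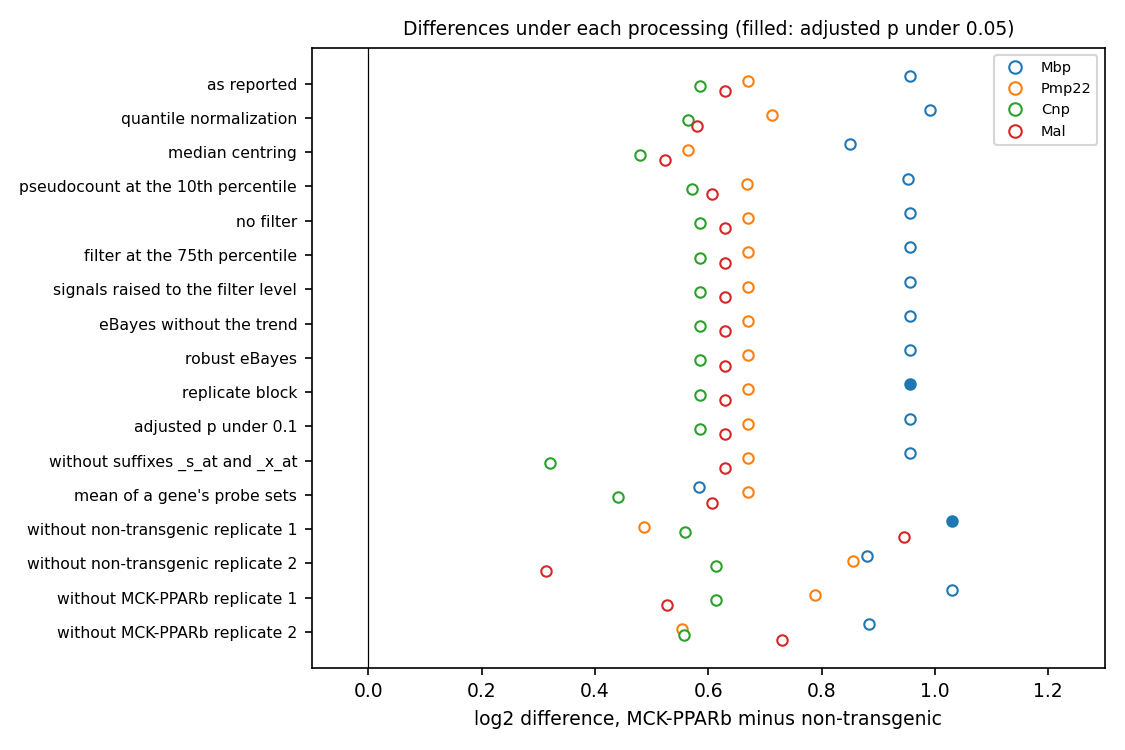
Log2 difference (MCK-PPARb minus non-transgenic, x axis) of Mbp, Pmp22, Cnp and Mal as reported and under each other processing (y axis). Filled points have a limma adjusted p under 0.05. Changes of filter, floor, variance prior, block or threshold could not alter these differences and repeat the reported values. All points lie above 0, from 0.31 to 1.03, and the 2 filled points are those of Mbp without non-transgenic replicate 1 and with a replicate block.

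Under the 16 alternatives, all 64 differences of Mbp, Pmp22, Cnp and Mal were positive. Many of these repeat the reported value, since changes of filter, floor, variance prior, block or threshold could not alter the differences of these genes. The count is therefore no measure of agreement between the 64 differences. Of the 62 with a test, 2 had a limma adjusted p under 0.05, both of Mbp. Centring each array on its median lowered the median of the kept probe sets by 0.11 on the log2 scale and gave 0.85 for Mbp, 0.57 for Pmp22, 0.48 for Cnp and 0.52 for Mal. Over the same alternatives Mag stayed between -0.24 and -0.047, Egr2 between 0 and 1.17, Gjb1 between -0.44 and 1.09 and S100b between -2.54 and 0.67.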

How the data were processed

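Each deposited value is the linear signal intensity of a probe set on an array. The submitters' processing notes name MAS5 and GCOS, with versions not given in sources used here. Trimmed by 2% at either end, the mean of the authors' deposited intensities was 1501 for all 4 arrays, a common scale. All signals were positive. No depth applies to arrays, and their number limits the precision.

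Of 22690 probe sets, 64 controls were left out. Of the other 22626, 20380 carried 1 symbol in the platform annotation, 691 several and 1555 none here. For 20351 the gene number gave a current symbol. No pseudocount was added before log2. The filter kept probe sets whose 4-array mean of log2 signals was above the median of all, at 444 units, which left 11313 probe sets and 6841 genes. The test was limma 3.58.1 (R 4.3.3; lmFit, then eBayes with an intensity trend). P-values were adjusted by Benjamini-Hochberg across kept probe sets, and under 0.05 a probe set was called. All differences are MCK-PPARb minus non-transgenic. The 2 residual degrees of freedom were joined by 5.38 of the prior. The fit was tested on simulated data.

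The 8 genes and the 14 other lists were chosen with earlier results of these data known. Named from each list were the called genes and up to 4 kept genes of smallest p; the 5 nearest profiles were named by distance, and the dim and other list genes given here were added after their values were seen. Alternatives changed the scaling (quantile or median), the pseudocount (33.9), the filter (none, or 1490 units, the 75th percentile), the floor (signals raised to the filter level), the variance prior (no trend, or robust), the pairing (a replicate block), the threshold (0.1), the probe sets (without suffixed ones, or averaged per gene) and the arrays (each left out once). Promoter sequences came from RefSeq on GRCm38.p6.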

Additional observations from a re-analysis of the deposited data

How the results depend on the processing

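The labels number replicates 1 and 2 in both groups but name no shared litter or day. Same-numbered arrays deviated together (r = 0.276 over the kept probe sets), and with 2 numbers only this does not establish a pairing. With the replicate number as a block, 377 probe sets were called in limma against 68, and 1 of the 8 genes, Mbp (adjusted p = 0.0151). With a threshold of 0.1, 150 of 11313 kept probe sets and 1 of the 8 genes, Mbp again, were called. Median centring called 116 probe sets, 41.4% of them higher in MCK-PPARb muscle against 55.9% as reported, and eBayes without the trend called 21. When single arrays were left out, 36 to 159 probe sets and 0 to 1 of the 8 genes were called.

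Medians of lists moved by more than the spread between arrays as follows. Median centring gave -0.45 for axon and motor neuron genes, of which Thy1 alone passed the filter, and 0.0013 for genes of the node. With no filter the medians were 0.32 for other myelin genes, 0.28 for immature Schwann cells, -0.098 for axons and -0.017 for the node. With the filter at the 75th percentile they were 0.76 for the node and 0.27 for cholesterol synthesis. That of the node then rested on Cntnap2 at 1.61 and Ank3 at -0.084 alone. Without suffixed probe sets the node was at 0.32, and with probe sets averaged per gene immature Schwann cells were at -0.47, the value of the single gene Gfra3. When single arrays were left out, the median ran from 0.025 to 0.18 for other myelin genes, 0.16 to 0.36 for Schwann cell regulators, 0.060 to 0.21 for the node and 0.023 to 0.27 for cholesterol synthesis. Filters and probe set rules change which genes enter a median. Median centring shifted every difference by the same -0.106. For the arrays left out the cause was not tested. Of 205 list medians under the alternatives, 191 moved by less than that spread. These include all medians under a changed variance prior, block or threshold, which could not move, so the count overstates how stable the medians were. Signals below about 444 units had errors too large to give a direction for Gjb1, Egr2 and S100b.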
